A study of Paralichthys olivaceus with 24 samples.

Results

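The circadian clock genes per1b, ciart and rorca were followed in skeletal muscle of olive flounder (Paralichthys olivaceus), a farmed flatfish, at 4 water temperatures. The 3 genes were picked by symbol from a table of 11646 genes, with their lower values in warm muscle already known. The gene ciart carries its symbol in the table, and per1b (LOC109634833) and rorca (LOC109625638) were identified by their RefSeq symbols. All 3 had values above 0 in every library and a mean over the 4 libraries of at least 1 RPKM (a read density per length of transcript, relative to all mapped reads).

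The libraries are the muscle samples of the series named C in the sample titles, with 1 library each at 12, 18, 23 and 28 °C. The fish were 9 months old, all were acclimated to 12 °C before treatment, and no genotype or strain is given. The protocols describe 8 treatment groups of 15 fish, an acute regime with transfers to warmer water every 3 h, and a chronic regime that warmed the water by 3 °C per h and then held it for at least 20 h. The labels do not state that C is the chronic regime, how many fish stand behind a library, at what hour fish were sampled, or under what light cycle they were kept. Since each temperature is 1 library, temperature and any difference in the time of day at sampling cannot be told apart. The other 20 samples of the series, which include gill, liver and the series named A, were not analysed here.

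The vertebrate clock is a feedback loop in which the transcription factors Clock and Bmal switch on their own inhibitors, the period and cryptochrome genes, so that levels of these RNAs rise and fall through the day. A second loop of nuclear receptors, with Ror proteins as activators and Rev-erb proteins as repressors of the same DNA elements, acts on the Bmal genes. Skeletal muscle keeps such a clock of its own, which in mouse influences fuel use and muscle structure. In fish, peripheral tissues are in addition known to respond directly to light. Of the genes described here, per1b encodes a period protein, ciart encodes the repressor known in mammals as Chrono, and rorca is one of the fish counterparts of the mammalian receptor gene for ROR-gamma.

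All 3 genes were lowest at 28 °C and highest at 12 °C. The repressor gene ciart was at 18.1, 6.82, 5.13 and 2.69 RPKM at 12, 18, 23 and 28 °C. The period gene per1b was at 6.66, 4.46, 1.61 and 1.24 RPKM at the same temperatures. The receptor gene rorca was at 6.96, 3.39, 2.88 and 0.533 RPKM. On this scale, which is per length of transcript, ciart was the most abundant of the 3 in every library, while rorca and per1b changed places between temperatures. At 28 °C, ciart stood at 14.9%, per1b at 18.6% and rorca at 7.66% of its RPKM at 12 °C. These values have no replicate and no error estimate, and because the genes were chosen for this pattern they are given as a description, with no test.

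**Figure D1:**
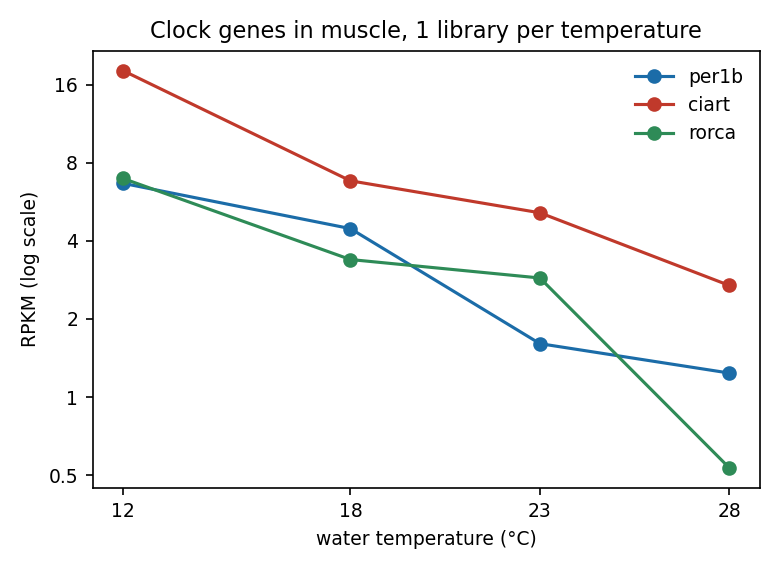
Level of ciart, per1b and rorca (RPKM, log axis) against water temperature in °C, with 1 library per point and no error bars. The 3 genes start at 18.1, 6.66 and 6.96 RPKM at 12 °C and end at 2.69, 1.24 and 0.533 RPKM at 28 °C, and the lines of per1b and rorca cross between each pair of neighbouring temperatures.

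Folds were taken as the log2 ratio of RPKM + 1, which understates differences of low genes. Against 12 °C, the log2 fold at 28 °C was -1.78 for per1b, -2.37 for ciart and -2.38 for rorca. All 3 were thus at least 2-fold lower at 28 °C, as were 22.5% of the 4378 genes with a mean of at least 1 RPKM in that pair. The table holds genes that the authors found at least 2-fold apart from 12 °C somewhere in the series, so this share is not one of the transcriptome. The median log2 fold of these genes was 0.01. Of them, 5.50% were as low as per1b or lower, 1.99% as low as ciart and 1.96% as low as rorca. The 3 genes were chosen with their low values in warm muscle known, so these shares are description only. Without the added 1 RPKM the log2 ratios were -2.43 for per1b, -2.75 for ciart and -3.71 for rorca, so that the distance of rorca from the other two depends on the scale.

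The 3 genes differed in where along the warming series their levels parted. For ciart the largest step was between 12 and 18 °C, with 37.6% of its 12 °C level left at 18 °C. That step held 51.3% of its whole log2 difference between 28 and 12 °C (taken on RPKM as deposited). For per1b the largest step was between 18 and 23 °C, where its level at 23 °C was 36.0% of that at 18 °C, and this step held 60.6% of its log2 difference. For rorca it was the last step, with a level at 28 °C that was 18.5% of that at 23 °C, or 65.6% of its log2 difference. The smallest step of per1b as deposited was the last, where it stood at 77.0% of its 23 °C level at 28 °C. With median-ratio scaling (log2 ratio -0.71 for the last step and -0.58 for the first) and with the authors' constants (-0.86 and -0.67), its first step was the smallest. The largest step of each gene was the same one under these scalings, although for ciart with the authors' constants the first (-1.50) and last (-1.41) were close. For per1b the step between 18 and 23 °C was -1.12 with median-ratio scaling and -1.04 with the authors' constants. It was thus nearer to the last step than as deposited, and the share of 60.6% holds for the deposited values only. The smallest steps of ciart and rorca were between 18 and 23 °C, where they stood at 75.3% and 84.9% of their 18 °C levels at 23 °C.

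**Figure D2:**
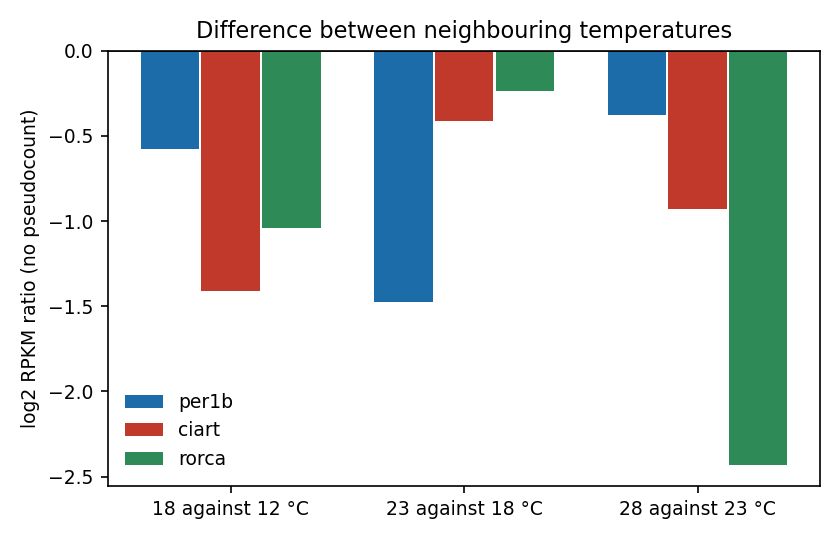
Log2 ratio of RPKM, with no pseudocount, between neighbouring temperatures for per1b, ciart and rorca (1 library per temperature, no error bars). The longest bar of ciart is at 18 against 12 °C (-1.41), that of per1b at 23 against 18 °C (-1.47), and that of rorca at 28 against 23 °C (-2.43).

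At 18 °C the log2 fold (RPKM + 1) against 12 °C was -1.29 for ciart, -0.86 for rorca and -0.49 for per1b. Only ciart was at least 2-fold lower by this measure, as were 2.68% of 4097 genes. With a pseudocount of 0.1 (log2 fold -1.02) or with none (-1.04), rorca was 2-fold lower at 18 °C as well. With a pseudocount of 0.1, 6.44% of the genes were 2-fold lower. At 23 °C the log2 folds were -1.64 for ciart, -1.56 for per1b and -1.04 for rorca, so all 3 were at least 2-fold lower, as were 10.8% of 3793 genes. As a set, the table's genes above 0 in all 4 libraries were lower at 23 °C, with a median log2 shift of -0.35 against 12 °C. The shifts at 18 and 28 °C were -0.003 and -0.02. The table holds only genes selected for a difference, so whether the 23 °C shift extends to the whole library cannot be told. With this shift removed by median-ratio scaling, the log2 folds at 23 °C were -1.34 for ciart, -1.33 for per1b and -0.77 for rorca, and rorca was no longer 2-fold lower. Between 23 and 18 °C only per1b was at least 2-fold lower (log2 fold -1.07), as were 9.01% of 3906 genes, and it was not with median-ratio scaling (-0.84) or with the authors' own library constants (-0.77). The small steps of ciart and rorca between 18 and 23 °C also depended on the scaling. As deposited, all 3 genes were lower at every step, a pattern shared by 27.7% of the 4238 genes with a mean of at least 1 RPKM. After median-ratio scaling rorca was at 3.68 RPKM at 23 °C, against 3.40 RPKM at 18 °C. With the authors' constants both rorca (3.66 RPKM at 23 °C, against 3.19 RPKM at 18 °C) and ciart (6.53 RPKM at 23 °C, against 6.42 RPKM at 18 °C) were slightly higher at 23 °C.

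Between 28 and 23 °C the log2 fold (RPKM + 1) was -1.34 for rorca, -0.73 for ciart and -0.22 for per1b. Only rorca was at least 2-fold lower in this pair, as were 7.89% of 4070 genes. With median-ratio scaling (-1.02) and with the authors' constants (-1.13), ciart was 2-fold lower here too, as were 14.4% and 18.4% of genes. In the authors' deposited table, the natural log ratios of 28 to 12 °C were -1.78 for per1b, -2.0 for ciart and -2.66 for rorca, all past the authors' 2-fold limit. In the authors' deposited table ciart (-1.04) and rorca (-0.78) passed that limit at 18 °C and per1b (-0.46) did not, while at 23 °C rorca did not pass it (-0.64). All 3 genes are in cluster 2 of the authors' deposited table.

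Marker genes of other tissues that have rows also differed between the libraries. Every row of the table is at least 2-fold apart from 12 °C somewhere, so markers within that limit could not appear. Markers in rows without a symbol could not be recognised. The lists held 34 markers of liver, 19 of exocrine pancreas and 15 of leukocytes. They held 12 of nerve, 10 of red blood cells and 36 of skeletal muscle. The summed RPKM of 24 rows of liver markers was 49.5, 4643, 59.0 and 442.8 at 12, 18, 23 and 28 °C. None of the 24 was at 0 in any library, and the symbols plg and itih2 had more than 1 row each. The 5 exocrine pancreas markers summed to 10.1, 166.9, 14.6 and 39.0 RPKM. The 6 leukocyte markers summed to 10.97, 3.44, 2.46 and 17.9 RPKM, the 4 nerve markers to 47.2, 47.1, 33.6 and 22.4 RPKM, and the single red blood cell marker lay between 0.116 and 0.502 RPKM. The liver and pancreas sums were highest at 18 °C, where ciart, per1b and rorca were below their 12 °C levels. Both sums were second highest at 28 °C, where the leukocyte sum was highest. The part of these tissues in the values of the 3 genes was not tested. The nerve sum, mainly the myelin gene mbpa, was lowest at 28 °C, as the 3 clock genes were, and its part in their values was not tested. Of the other nerve markers, mpz was also lowest at 28 °C (1.20 RPKM). In contrast gap43 was highest at 28 °C (0.281 RPKM) and elavl4 was lowest at 18 °C (0.017 RPKM). Both stayed under 1 RPKM in every library. Of the skeletal muscle markers, 6 had rows. The parvalbumin gene pvalb1, a calcium buffer of fast muscle, was at 6441, 5153, 4481 and 2336 RPKM, lowest at 28 °C. In contrast acta1a, for skeletal actin, had 66.9, 395.5, 417.1 and 308.9 RPKM, higher in all 3 warmer libraries. The calcium pump gene atp2a1 was at 17.0, 23.9, 34.7 and 8.88 RPKM, and mybpc2a, for a myosin-binding protein, at 1.83, 6.15, 1.40 and 1.39 RPKM. The muscle markers mylpf and atp2a1l each had a value of exactly 0 in 1 library and may be failed estimates there. For mylpf, which encodes a myosin light chain, this was at 18 °C, and for atp2a1l, of a calcium pump, at 23 °C. In the other 3 libraries mylpf lay between 20633 and 25861 RPKM and atp2a1l between 14940 and 15859 RPKM. In bulk muscle, fewer cells of a type and less RNA per cell cannot be told apart.

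The rest of the clock was taken from a list of clock genes and of genes known as clock outputs in mouse muscle, which was drawn up with earlier results of these data known. Besides the 3 genes, 27 genes of the list are described, 19 of them with a mean of at least 1 RPKM. Clock genes and output genes of the list are together called clock genes in the counts. RefSeq holds 45 genes under the symbols of the list. Since the table keeps only genes at least 2-fold apart from 12 °C somewhere, listed genes within that limit could not appear. Only 2788 of 7526 numbered gene IDs took a symbol, so listed genes among the others could not be recognised. The 27 are thus not the whole clock. At 28 against 12 °C, 21 met the minimum for the pair, of which 8 were at least 2-fold lower and 0 at least 2-fold higher (22.5% and 34.2% of all genes). The 8 were clock, cry1a, rorcb, nfil3-2, dbpb and the related lipin output genes lpin1, lpin1a and lpin1b. With a pseudocount of 0.1, 11 were lower and 3 higher (35.1% and 44.0% of all genes), the higher ones being per2, pdk4 and nr1d2. The median log2 fold of the 21 genes with 1 RPKM added was -0.80, beside 0.01 for all genes in the pair. At 23 against 12 °C, 5 of 20 were lower and 2 higher (10.8% and 2.98% of all genes), with a median of -0.57 beside -0.33; with median-ratio scaling 3 were lower (4.90% of all genes) and with the authors' constants also 3 (5.08%). At 18 against 12 °C, 0 of 22 were lower and 0 higher (2.68% and 7.66% of all genes), with a median of -0.30 beside -0.11; 2 were lower with the authors' constants (3.56% of all genes), and 3 lower and 1 higher with a pseudocount of 0.1 (6.44% and 10.3%). At 28 against 23 °C, 2 of 20 were lower and 2 higher (7.89% and 35.6% of all genes), with a median of -0.36 beside 0.47. With median-ratio scaling these were 7 lower and 0 higher (14.4% and 27.2% of all genes), and with the authors' constants 8 lower and 0 higher (18.4% and 23.2%).

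Among the activators, the 2 rows for Clock proteins were lower in warm muscle. The gene annotated clock was at 3.55, 2.80, 1.65 and 0.507 RPKM from 12 to 28 °C, a log2 fold of -1.60 at 28 °C. Its relative clockb was at 2.58, 1.85, 1.47 and 0.943 RPKM (-0.88). The gene bmal2, which encodes a partner of Clock, had a different profile, with 2.54, 4.88, 6.58 and 3.73 RPKM and its highest level at 23 °C (log2 fold 1.10, and 0.42 at 28 °C). The fourth activator gene, npas2, which encodes a Clock-like protein, had a mean under 1 RPKM, with 0.834, 1.17, 0.908 and 0.264 RPKM.

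Among the repressors, the period genes did not share one profile. The gene per3 was at 3.82, 1.88, 1.35 and 2.30 RPKM, lowest at 23 °C. The gene per2, known in zebrafish as a light-induced period gene, had a mean under 1 RPKM. It was at 0.534, 0.331, 0.590 and 1.76 RPKM, so that it was highest at 28 °C, where per1b was lowest. At 28 against 12 °C the log2 folds were 0.85 for per2 and -0.55 for per3, beside -1.78 for per1b, and these directions held under both other scalings. The cryptochrome gene cry1a, which encodes a partner of the period proteins, was at 16.9, 9.10, 10.3 and 7.68 RPKM (log2 fold -1.04 at 28 °C). The gene cipcb, named for a protein that binds Clock in mammals, also had a mean under 1 RPKM, with 1.81, 0.873, 0.552 and 0.612 RPKM. The gene cry-dash, of a DNA-repair branch of the cryptochrome family, was at 2.45, 0.931, 0.505 and 2.14 RPKM, with 28 °C close to 12 °C.

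Among the nuclear receptors, rorca and its relative rorcb had unlike profiles up to 23 °C. The gene rorcb was at 11.8, 16.6, 17.4 and 4.71 RPKM, higher at 18 and 23 °C than at 12 °C (log2 folds 0.46 and 0.53) and lower at 28 °C (-1.16). Both genes had their lowest value and their largest step at 28 °C, where rorca stood at 18.5% and rorcb at 27.0% of the 23 °C level. The Rev-erb gene nr1d2, whose protein opposes the Ror receptors, was at 1.26, 1.42, 1.50 and 2.99 RPKM, with its highest value at 28 °C (log2 fold 0.82). How reads were shared between related genes is not stated, so values of close relatives are uncertain.

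**Figure D3:**
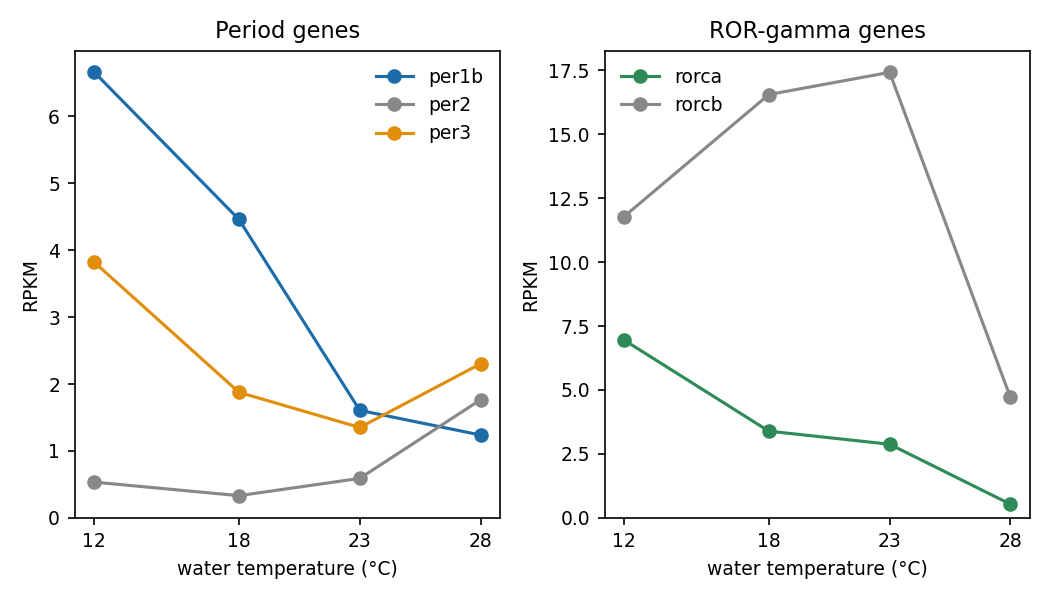
RPKM of the period genes per1b, per2 and per3 (left) and of rorca and rorcb (right) against water temperature in °C, with 1 library per point and no error bars. At 28 °C per1b is at its lowest (1.24 RPKM) and per2 at its highest (1.76 RPKM), while rorcb has its highest value at 23 °C (17.4 RPKM), where rorca is at 2.88 RPKM. The mean of per2 over the libraries is 0.805 RPKM.

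The bZIP factors that carry the clock to its outputs, Dbp and Hlf as activators and Nfil3 as their competitor, were split as well. The gene dbpb was at 4.64, 4.57, 3.50 and 0.935 RPKM (log2 fold -1.54 at 28 °C), so it resembled rorca in its large last step. Of the nfil3 family, nfil3-2 was at 3.90, 3.27, 2.24 and 0.827 RPKM (-1.42) and nfil3-5 at 4.66, 3.34, 2.42 and 1.92 RPKM (-0.95). In contrast nfil3 was lowest at 23 °C (7.54, 3.46, 2.23 and 5.63 RPKM), and nfil3-6 was at 49.5, 25.7, 50.2 and 48.6 RPKM, lowest at 18 °C. The gene hlf was higher in all 3 warmer libraries, with 16.5, 26.0, 35.4 and 25.0 RPKM.

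The gene gsk3b, whose kinase acts on clock proteins in mammals, was at 4.04, 1.92, 1.47 and 2.95 RPKM, lowest at 23 °C. Among the outputs, the 3 lipin rows, for enzymes of lipid synthesis, were all at least 2-fold lower at 28 °C. The gene lpin1a was at 6.40, 3.56, 1.63 and 0.442 RPKM (-2.36), lpin1 at 30.5, 25.7, 21.1 and 11.7 RPKM (-1.31) and lpin1b at 17.1, 13.0, 11.7 and 6.21 RPKM (-1.32). The gene pdk4, which encodes a kinase that limits glucose oxidation, was at 1.48, 3.14, 2.44 and 3.55 RPKM, higher in the warmer libraries (0.88). The remaining 5 listed genes, tead1, dbpa, bhlhe41, csnk1e and wee1, had means under 1 RPKM and values between 0.038 and 1.46 RPKM in the 4 libraries.

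**Figure D4:**
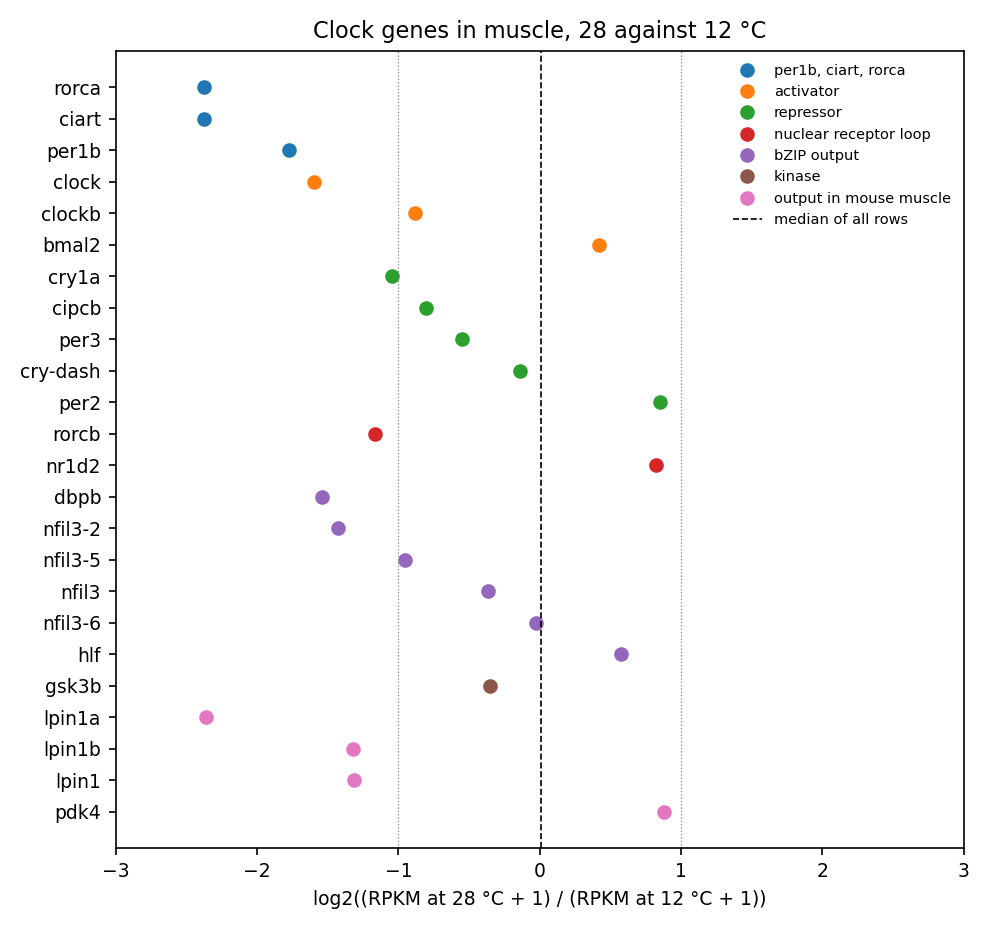
Log2 fold (RPKM + 1) at 28 against 12 °C for per1b, ciart, rorca and the 21 other clock genes that met the minimum, coloured by role, with 1 library per temperature and no error bars. Dotted lines mark 2-fold, and the dashed line is the median of all genes in the pair (0.01). The lipin gene lpin1a (-2.36) lies beside ciart and rorca (-2.37 and -2.38), and none of the plotted genes lies beyond 2-fold on the right.

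Lower levels at every step, as in the 3 genes, were seen in 8 of the 19 other clock genes with a mean of at least 1 RPKM, beside 27.7% of all such genes. These were clock, clockb, dbpb, nfil3-2, nfil3-5 and the related lipin output genes lpin1, lpin1a and lpin1b. The number was 6 of 20 after median-ratio scaling and 4 of 19 with the authors' constants, beside 16.4% and 15.2% of all genes. Of the 19, 10 shared cluster 2 of the authors' deposited table with the 3 genes, beside 44.2% of all genes with such a mean.

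A straight line against temperature asked whether the levels differed steadily with warming, with limma on log2(RPKM + 1) and Benjamini-Hochberg adjustment over all 4075 genes fitted. Of the 20 other clock genes fitted, 15 had a negative slope, beside 57.1% of all genes. With limma, 0 of the 20 and 0 of 4075 genes (0.00%) passed an adjusted p of 0.05. The smallest adjusted p was 0.193, which is the value reached by lpin1a (-0.15 ± 0.02 log2 units per °C, SE), clock (-0.10 ± 0.02) and nfil3-2 (-0.09 ± 0.03). At an unadjusted p under 0.05 there were 5 of the 20, all negative, beside 25.5% of all genes. The slopes of the 3 chosen genes, given without a test, were -0.12 ± 0.03 for per1b, -0.14 ± 0.03 for ciart and -0.14 ± 0.03 for rorca (SE, 4 libraries). With 1 library per temperature, the SE and p of all these fits come from departure from a straight line, with variances shared across genes. They do not measure spread between fish or between replicate libraries.

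The genes with profiles nearest to each of the 3 were looked for among the 2892 other named genes whose mean reached 1 RPKM. Likeness was the Euclidean distance between log2(RPKM + 1) values over the 4 libraries, each centred on its own mean. Nearest to per1b were pheta2 (0.13), arpp21 (0.16) and tgfb3 (0.19), where the median gene was at 1.50. The growth factor gene tgfb3, for instance, was at 18.6, 15.1, 6.92 and 5.35 RPKM. Nearest to ciart were myclb (0.16), of the Myc family, atg9b (0.24), of the autophagy machinery, and cdkn1d (0.26), named for a cell cycle kinase inhibitor. The gene myclb was at 4.97, 1.29, 0.760 and 0.216 RPKM. Nearest to rorca were tmem255a (0.16), lclat1 (0.20), an acyltransferase gene, and rassf8b (0.22). The gene tmem255a was at 6.67, 2.92, 2.18 and 0.367 RPKM. All 9 were in cluster 2 of the authors' deposited table, as were 44.2% of all genes with a mean of at least 1 RPKM. They were chosen for profiles near those of 3 cluster 2 genes, so the shared cluster follows in part from the choice. No clock gene was among the 9. Besides the 3 chosen genes, only 19 listed genes with a mean of at least 1 RPKM were among the candidates. Absence from the 9 therefore says little about them. Any gene outside the nearest 3 is less alike than these by the choice. Of the 3 clock genes, ciart and rorca were 0.53 apart, ciart and per1b 0.67, and per1b and rorca 0.84. The 3 were chosen with their lower values in warm muscle known. Their distances and ranks to each other thus follow in part from that choice and are description only. The median gene was at 1.50 from per1b, 1.71 from ciart and 1.69 from rorca. Among the 2892 genes, rorca ranked 38 and per1b 98 by nearness to ciart, ciart ranked 88 and per1b 330 by nearness to rorca, and ciart ranked 220 and rorca 528 by nearness to per1b.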

How the data were processed

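RNA of muscle was sequenced with 1 library per temperature. The authors deposited RPKM values, per the file headers. Per the submitters' processing notes, TopHat2 and Cufflinks were used (no versions listed). The genome build is not given in the sources used here. The authors' comparison columns are headed as log2 values. From the deposited values they are natural logs of ratios to 12 °C, each ratio multiplied before the log by 1 factor per library. The factors were 0.942, 1.272 and 0.910 at 18, 23 and 28 °C. With RPKM under 0.01 set to 0.01, this held in 11635, 11641 and 11633 of 11646 rows (tolerance 1e-05). The authors' cluster score is a number from 1 to 7. All 11646 rows are past 2-fold in at least 1 comparison, so shares describe selected genes and not the transcriptome.

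Of 7526 numbered gene IDs, 2788 took a symbol from RefSeq (ASM2471397v2), used for names alone. Absolute depth is unknown. The steps of low values gave depths of 1.004, 0.982 and 1.013 relative to 12 °C. Only low values close to their 12 °C value were used, so a large difference in depth could not have shown. Folds used a pseudocount of 1 RPKM, a pair minimum of 1 RPKM and a limit of 2-fold. Slopes were fitted with limma 3.58.1 in R 4.3.3 (at least 1 RPKM in 2 libraries, trended variances, two-sided) and checked on simulated data. The simulated slopes were steeper than those of the clock genes fitted, so that check does not show whether slopes like theirs could pass. Members and lists were chosen with earlier results of these data known. The text names the 3 genes, listed clock genes with a mean of at least 1 RPKM and the 3 nearest profiles per gene. The 8 listed genes with lower means were named in addition after their values were seen, and 1 listed gene is not reported here. Alternatives were a pseudocount of 0.1 or none, 2 other scalings, no minimum, and slopes without the 18 °C library.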

Additional observations from a re-analysis of the deposited data

How the results depend on the processing

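No paired analysis was possible because each temperature is 1 library with no replicate number in the labels. The folds of per1b, ciart and rorca against 12 °C stayed negative under every pseudocount and scaling tried. A fold was counted as moved when it shifted by over 1.5 times. At 28 against 12 °C rorca moved to -3.48 with a pseudocount of 0.1 and to -3.71 with none, and per1b to -2.43 with none. At 28 against 23 °C rorca moved to -2.23 and -2.43. At 23 against 18 °C the log2 fold of rorca, -0.18 as deposited, was 0.09 with median-ratio scaling and 0.15 with the authors' constants, and that of ciart, -0.35, was -0.05 and 0.02. Among the other clock genes, a pseudocount of 0.1 gave 3 lower and 1 higher at 18 °C (6.44% and 10.3% of all genes). At 28 against 12 °C it gave 3 higher (44.0%). At 28 against 23 °C it gave 5 lower and 3 higher (13.5% and 44.8%). With a pseudocount of 1 these were 2 and 2 (7.89% and 35.6%). The authors' constants gave 2 lower at 18 °C (3.56%). Lower genes at 23 against 12 °C numbered 3 with median-ratio scaling (4.90%) and 3 with the authors' constants (5.08%). At 28 against 23 °C these scalings gave 7 and 8 lower genes (14.4% and 18.4%). They gave 0 and 0 higher genes (27.2% and 23.2%), where 2 were lower and 2 higher as deposited. With limma, 0 clock genes passed in any setting, including without the 18 °C library, where 16 of 20 slopes were negative and the smallest adjusted p of a clock gene was 0.436. No signs against 12 °C of the other clock genes that met the minimum turned under either scaling. With no counts and no replicates, the precision of each value is unknown. Every setting started from the same deposited values, so these shifts come from the settings. Which setting is closest to the true levels was not tested.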
